A study of Homo sapiens with 20 samples.

Results

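The mitotic kinesins are motor proteins that build the spindle, move chromosomes along it and finish cell division. The members were the 10 genes KIF11, KIF20A, KIF20B, KIF23, KIF14, KIF18A, KIF2C, KIF4A, KIF15 and CENPE, taken from the 58787 genes of the count table by matching each symbol to its Ensembl identifier. Each symbol matched 1 identifier. All 10 genes passed the low-count filter and were among the 13729 genes tested. None was chosen by its measured values, but the set was proposed with results of these data known.

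The cells were IMR-32, an established human neuroblastoma line with an amplified MYCN oncogene, described in the labels as wild type. They were treated for 24 h in 5 groups, each with 4 libraries. One group received the vehicle DMSO. Dyngo-4a was given alone at a low dose of 1 µM and at a high dose of 2.26 µM, and prexasertib alone at 2 nM. The last group received prexasertib together with Dyngo-4a, at doses not given in the sources used here (the combination). Dyngo-4a is a dynamin inhibitor, and prexasertib blocks CHK1, a checkpoint kinase that guards DNA replication. The series title names inhibition of CHK1 and of MUS81, a nuclease of stalled replication forks. The labels do not state whether the 4 libraries within each group are separate cultures; p-values therefore cover the spread among these libraries only, which may be technical. All groups are 1 cell line, and in bulk RNA a smaller share of dividing cells and less RNA per cell cannot be told apart.

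Kinesins use ATP to walk along microtubules or to take their ends apart. During mitosis some push the spindle poles apart, some hold and align chromosomes, and others bundle the midzone microtubules where the cell then cleaves. Transcripts of most of these motors build up late in the cell cycle. Their promoters are known for an element called the CHR (cell cycle genes homology region), bound by the DREAM and MuvB complexes, and for CCAAT boxes, bound by NF-Y.

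Promoter sequence was taken from RefSeq (GRCh38.p14), which held all 10 members, in windows of 300 bases from 250 before to 50 after the gene's start in RefSeq, which differs from the GENCODE start for some members. Both strands were searched for the CHR cores TTTGAA and TTTAAA and for CCAAT. At least 1 of the CHR cores stood in 10 of the 10 member promoters, against 24% of 35116 promoters of the same length. TTTGAA was found in 7 of 10 members and 15.2% of all promoters. TTTAAA was found in 5 of 10 members and 12.2% of all. CCAAT was found in 7 of 10 members and 34.6% of all. The 3 members without CCAAT in the window were KIF2C, KIF15 and CENPE. TTTAAA is its own reverse complement and was counted once, and no core overlapped a CCAAT box in the members. A match is a description of the letters and not a shown binding site.

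The sequences below run from 100 bases before the start to 3 bases after it, 5′ to 3′ on the gene's own strand, with CHR cores and CCAAT boxes in capitals (TTCAAA and ATTGG are the reverse complements of TTTGAA and CCAAT). They are shown for the 5 kinesins whose combination libraries lay above all 16 others and for KIF15, whose combination libraries lay within the DMSO range. The regions are chr5:138179012-138179114 (plus strand) for KIF20A, chr15:69414249-69414351 (plus) for KIF23, chrX:70290004-70290106 (plus) for KIF4A, chr1:44739737-44739839 (plus) for KIF2C, chr4:103198341-103198443 (minus) for CENPE and chr3:44761694-44761796 (plus) for KIF15.
KIF20A: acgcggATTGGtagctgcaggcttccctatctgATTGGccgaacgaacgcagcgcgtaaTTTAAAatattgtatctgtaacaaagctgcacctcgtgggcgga
KIF23: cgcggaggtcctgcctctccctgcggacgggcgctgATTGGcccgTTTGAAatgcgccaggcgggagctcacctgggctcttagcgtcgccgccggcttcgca
KIF4A: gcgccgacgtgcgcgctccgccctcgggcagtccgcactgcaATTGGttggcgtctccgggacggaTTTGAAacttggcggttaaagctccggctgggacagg
KIF2C: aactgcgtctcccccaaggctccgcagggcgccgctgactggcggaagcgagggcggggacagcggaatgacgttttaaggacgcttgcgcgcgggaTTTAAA
CENPE: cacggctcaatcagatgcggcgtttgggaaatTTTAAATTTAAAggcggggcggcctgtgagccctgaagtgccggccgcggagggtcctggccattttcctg
KIF15: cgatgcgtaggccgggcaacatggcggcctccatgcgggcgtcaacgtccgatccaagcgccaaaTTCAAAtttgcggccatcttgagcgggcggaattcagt
KIF20A carries TTTAAA 41 bases before its start with a pair of CCAAT boxes upstream of it, and KIF23 and KIF4A carry TTTGAA with 1 CCAAT box upstream. KIF2C has TTTAAA across its start and CENPE has 2 adjoining copies, both without CCAAT in the window. The KIF15 core is on the opposite strand, 35 bases before the start. KIF15 has a core in the printed stretch, as do the 5 others. Whether these letters bear on the kinesin levels was not tested.

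**Figure D1:**
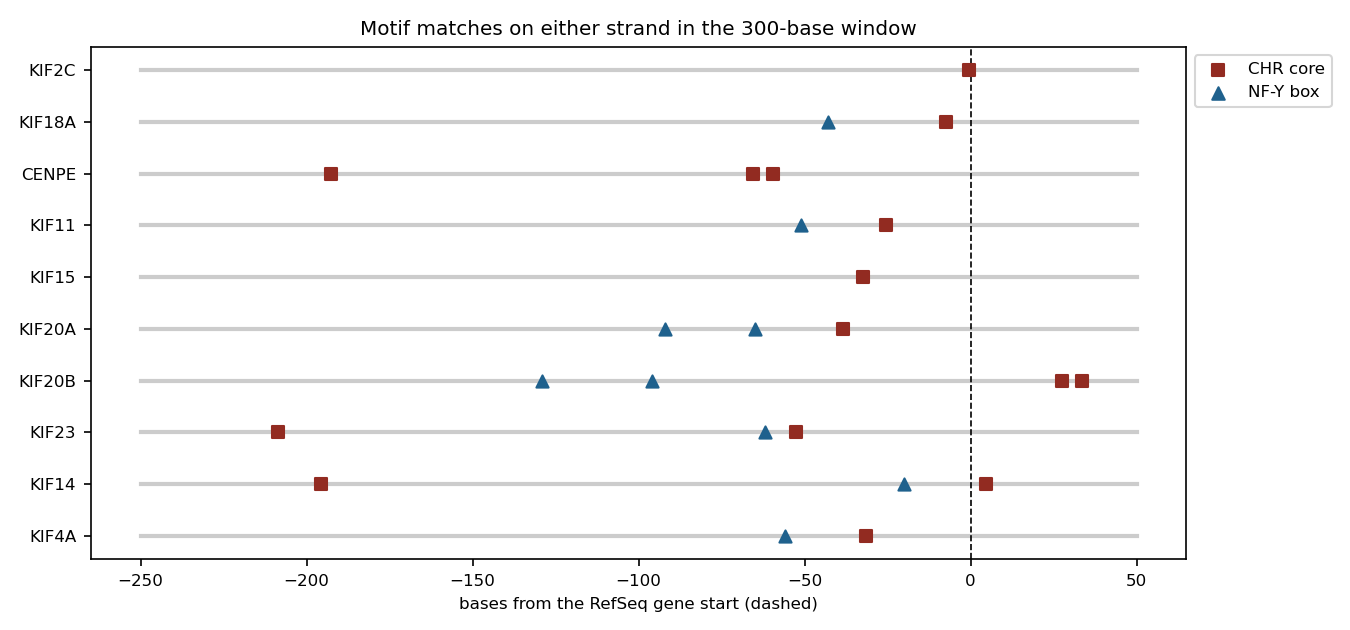
Position of CHR cores and CCAAT boxes in the promoter windows of the 10 kinesins, in bases from the gene's start (x axis), 1 line per gene. Each of the 10 promoters has at least 1 CHR core, and 7 of 10 have a CCAAT box.

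Library totals ran from 3960885 to 6537843 counts. Levels are given as CPM, counts relative to a fixed library total after TMM scaling, and the level that a count of 0 allows was 0.459 to 0.757 CPM (3 counts, counting error only). Across genes, which are not independent replicates, Pearson's r between libraries of a group was 0.97 to 0.981. Replicates 1 and 3 lay apart from replicates 2 and 4 in all 5 groups on the second principal component, which held 11.9% of the variance. The labels put all libraries in 1 batch and name no reason for this split. Sympathetic neuroblast markers summed to 5270 to 6090 CPM over the libraries and 9 of 10 were tested, with TH the untested one. At the high dose 7 of these 9 were called against DMSO, where 25.2% of all tested genes were called. Of the 7, 3 were higher and 4 lower, from -0.69 for DBH to 0.41 for PHOX2A on the log2 scale. In the combination 0 of 9 were called by edgeR (3 at an unadjusted p under 0.05), where 6.3% of all tested genes were called. Of 6 mesenchymal markers 2 were tested, and they went opposite ways at the high dose. COL1A1 was lower (log2 fold change -0.77, adjusted p 0.00153 by edgeR). TWIST1 differed by 0.165 and was not called, with means of 277.4 CPM in DMSO and 310.7 CPM at the high dose. The part of these shifts in the kinesin values was not tested. Mesenchymal markers summed to 258 to 356 CPM with PRRX1 at 0 in all libraries, Schwann cell markers to 2.54 to 9.77 CPM with SOX10 at 0, blood markers to 0 to 2.26 CPM and endothelial markers to 0 to 1.98 CPM.

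In the combination, 6 of the 10 rose against DMSO and none fell, where 6.3% of all tested genes were called and 3.47% were called higher. At the high dose of Dyngo-4a, KIF20A and KIF20B fell and KIF2C and KIF15 rose. These 2 higher and 2 lower of 10 stand beside 12.5% of tested genes higher and 12.7% lower, 25.2% in all, so calls in either direction were common there. At the low dose, 0 of 10 were called (0.262% of all genes), and with prexasertib alone 0 of 10 were called (0% of all genes). A call means an adjusted p of at most 0.05 from edgeR's quasi-likelihood F-test, fitted over all 20 libraries and adjusted by Benjamini-Hochberg over all 13729 genes. In the combination 5 of 10 members (KIF20A, KIF23, KIF2C, KIF4A, CENPE) had all 4 libraries above the other 16, as did 1.3% of tested genes.

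**Figure D2:**
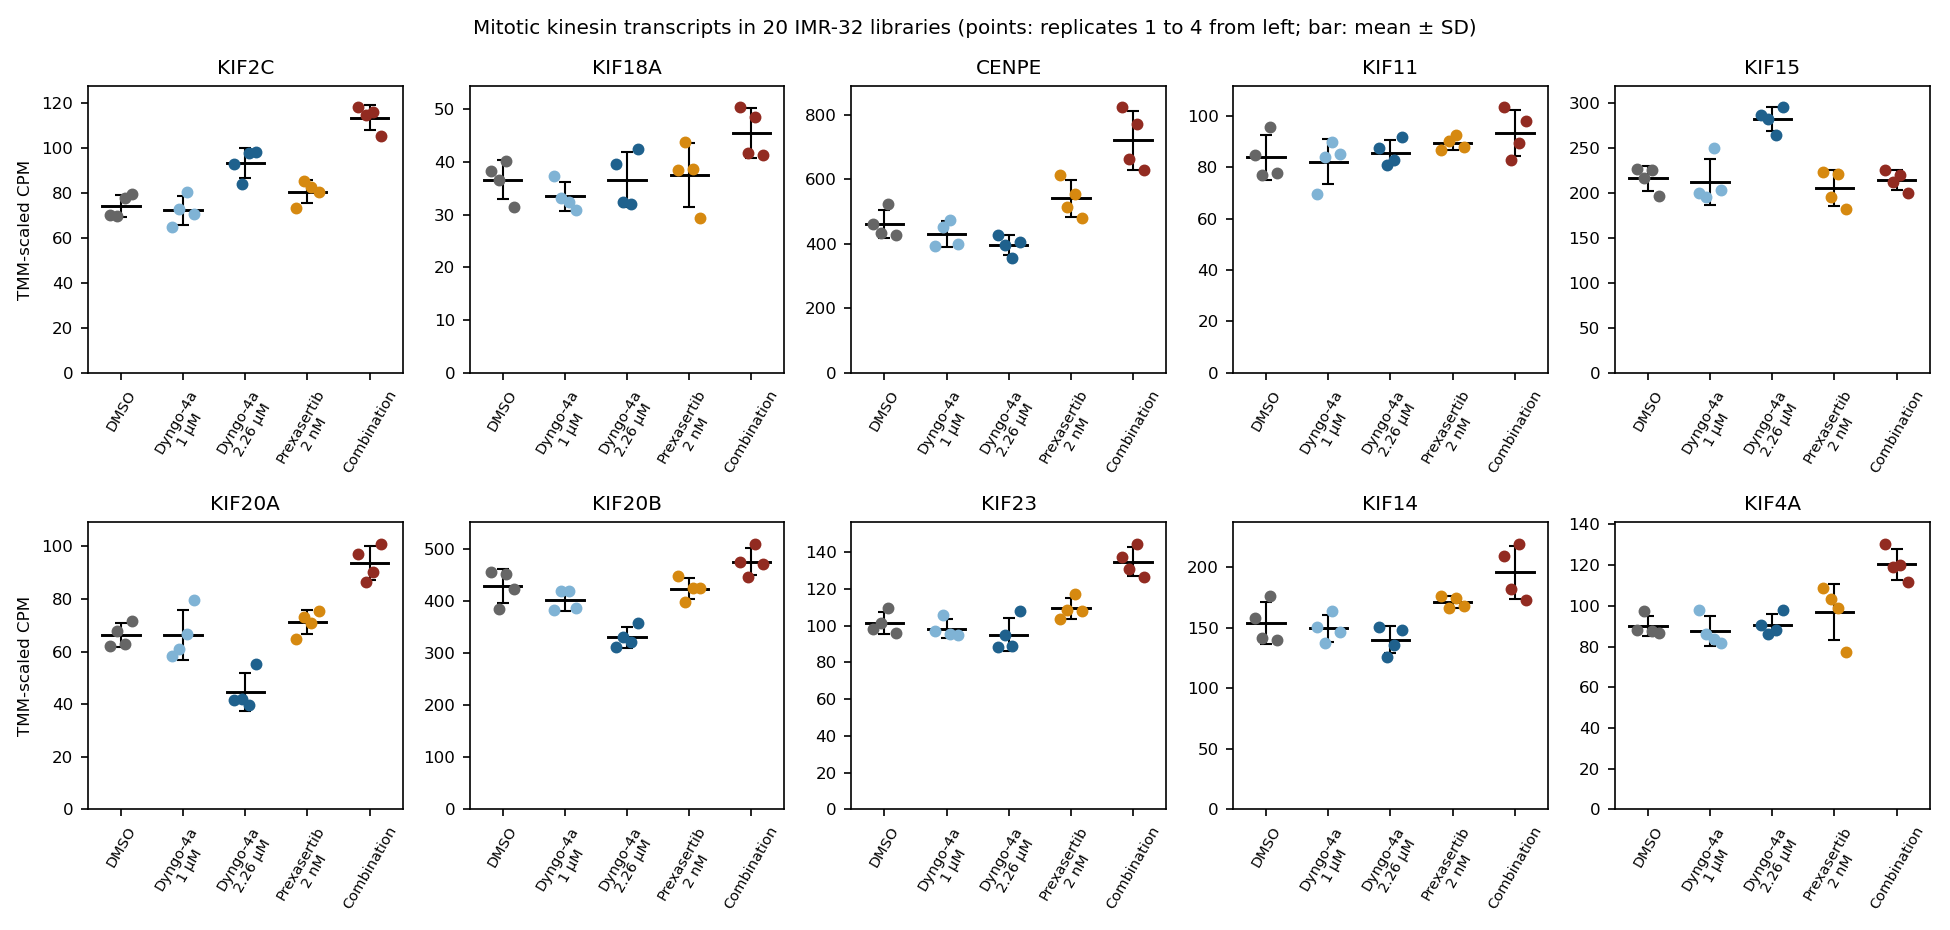
Level of each kinesin in CPM (y axis, linear, from 0) in the 20 libraries by group, with points for libraries, horizontal lines for the mean and error bars for 1 SD (n = 4). The combination libraries of CENPE, KIF2C, KIF20A, KIF23 and KIF4A lie above every other library, and KIF15 is highest at the high dose of Dyngo-4a.

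The motors of the kinetochore and of chromosome alignment come first. CENPE (ENSG00000138778, GRCh38 chr4:103105806-103198409, minus strand, protein coding) carries chromosomes towards the spindle equator from the kinetochore. CENPE stood at 463.2, 433.7, 524.9 and 429.2 CPM in the DMSO libraries and at 824.1, 664.3, 772.4 and 628.1 CPM in the combination libraries. Every combination library was above every DMSO library. The log2 fold change was 0.64 ± 0.099 (SE), a fold of 1.56, with an adjusted p of 1.71e-05 by edgeR. With prexasertib alone CENPE was at 614.8, 515.2, 554.1 and 480.8 CPM, which overlapped DMSO, and the log2 fold change of 0.23 had an adjusted p of 1. At the low dose it was at 394.1, 452.2, 474.9 and 399.8 CPM. At the high dose it was at 428.5, 396.9, 356.6 and 406.8 CPM, all below the lowest DMSO library, with a log2 difference of -0.22 ± 0.099 that did not pass the test (adjusted p by edgeR 0.0981).

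KIF2C (ENSG00000142945, chr1:44739818-44767767, plus strand) takes microtubule ends apart at the centromere and so releases wrong attachments. Its DMSO libraries were at 70.41, 69.95, 77.58 and 79.57 CPM and its combination libraries at 118.1, 114.6, 115.8 and 105.5 CPM. The groups did not overlap, and the log2 fold change was 0.61 ± 0.093 (adjusted p 1.56e-05 by edgeR). KIF2C also rose at the high dose, where the libraries held 92.69, 83.92, 97.94 and 98.19 CPM, without overlap with DMSO. That log2 fold change was 0.32 ± 0.093 (adjusted p 0.00872 by edgeR). The low dose (64.96, 73.06, 80.61 and 70.70 CPM) and prexasertib (73.47, 85.52, 82.61 and 80.53 CPM) overlapped DMSO. KIF2C was thus the 1 kinesin of the 10 that was called higher in both the high dose and the combination.

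KIF18A (ENSG00000121621, chr11:28020620-28108308, minus strand) walks to microtubule plus ends and damps the swings of aligned chromosomes. It had the fewest counts of the members, 146 to 242 per library. DMSO libraries were at 38.25, 36.60, 40.10 and 31.54 CPM and combination libraries at 50.38, 41.69, 48.57 and 41.34 CPM, without overlap. Its log2 difference of 0.31 ± 0.13 did not pass the test (adjusted p by edgeR 0.146). The other groups overlapped DMSO, with means of 33.5 CPM at the low dose, 36.65 at the high dose and 37.55 with prexasertib. KIF18A lies opposite METTL15, and no source used here gives the strand setting of the counting, so reads of such partners may not be separated. METTL15 differed from DMSO by -0.02 on the log2 scale in the combination (adjusted p 0.964 by edgeR).

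KIF11 and KIF15 keep the spindle bipolar. KIF11 (ENSG00000138160, chr10:92593286-92655395, plus strand) is the tetramer that slides antiparallel microtubules and pushes the poles apart, and KIF15 (ENSG00000163808, chr3:44761717-44873376, plus strand) can take over part of that work. KIF11 stayed within overlapping ranges in all 5 groups: 76.97 to 95.72 CPM in DMSO, 69.49 to 89.76 at the low dose, 80.86 to 91.73 at the high dose, 86.77 to 92.52 with prexasertib and 83.04 to 103.4 in the combination. Its log2 difference between combination and DMSO was 0.16, with a 95% interval from -0.04 to 0.35 and an adjusted p of 0.404 by edgeR. KIF11 was called in none of the 9 comparisons.

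KIF15 was called higher at the high dose and not in the combination. Its high-dose libraries held 286.3, 282.2, 264.4 and 295.3 CPM and its DMSO libraries 226.7, 216.6, 225.5 and 196.9 CPM. All 4 high-dose libraries lay above the other 16 libraries, as in 4.58% of tested genes, and the log2 fold change against DMSO was 0.38 ± 0.09 (adjusted p 0.00152 by edgeR). In the combination KIF15 was at 225.7, 211.9, 219.7 and 199.8 CPM, within the DMSO range. That log2 difference was -0.01, with a 95% interval from -0.2 to 0.17 (adjusted p 0.951 by edgeR). KIF15 lies on the same strand as TMEM42, which had 928 counts in all libraries together and a log2 difference of 0.01 at the high dose (adjusted p 0.978 by edgeR).

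The remaining 5 members work in the central spindle and at the cleavage site. KIF20A (ENSG00000112984, chr5:138178719-138187715, plus strand) brings the chromosomal passenger complex to the midzone. It was the member that moved furthest in opposite directions: DMSO libraries held 62.04, 67.94, 62.87 and 71.72 CPM, high-dose libraries 41.61, 41.78, 39.72 and 55.37 CPM, and combination libraries 97.21, 86.49, 90.34 and 101.0 CPM. The 3 groups did not overlap. Against DMSO the high dose gave a log2 fold change of -0.57 ± 0.11 (adjusted p 0.000214 by edgeR). The combination gave 0.5 ± 0.11 (adjusted p 0.0023 by edgeR). The low dose (58.27, 60.91, 66.66 and 79.79 CPM) and prexasertib (64.87, 73.04, 70.92 and 75.52 CPM) overlapped DMSO. BRD8 and CDC23 lie opposite KIF20A. BRD8 rose at the high dose (log2 0.64, adjusted p 6.27e-06 by edgeR), where KIF20A fell, and in the combination (log2 0.53, adjusted p 0.000394), where KIF20A rose, and a part of it in the KIF20A counts was not tested. CDC23 had log2 differences of -0.15 and -0.29 in the same order, neither called.

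KIF20B (ENSG00000138182, chr10:89701610-89774939, plus strand) acts at the midbody late in cytokinesis. DMSO libraries were at 454.6, 384.3, 452.2 and 423.4 CPM and high-dose libraries at 311.0, 330.6, 321.9 and 358.3 CPM. All 4 high-dose libraries lay below the other 16, as in 3.68% of tested genes. The log2 fold change was -0.38 ± 0.083 (adjusted p 0.000833 by edgeR). Combination libraries, at 475.0, 446.2, 509.6 and 471.2 CPM, overlapped DMSO and differed by 0.15 (adjusted p 0.333 by edgeR).

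KIF23 (ENSG00000137807, chr15:69414246-69448427, plus strand) is the motor of centralspindlin, the complex that recruits the cleavage machinery. Its libraries held 98.39, 101.3, 109.6 and 96.06 CPM in DMSO and 137.2, 130.8, 144.6 and 126.6 CPM in the combination, without overlap. The log2 rise was 0.41 ± 0.089 (adjusted p 0.00231 by edgeR). KIF4A (ENSG00000090889, chrX:70290090-70420832, plus strand) limits the length of midzone microtubules together with PRC1. KIF4A held 88.30, 97.52, 87.86 and 86.45 CPM in DMSO and 130.5, 119.2, 120.3 and 111.9 CPM in the combination, again without overlap, with a rise of 0.42 ± 0.098 (adjusted p 0.00501 by edgeR). Neither was called at the high dose, where KIF23 stood at 88.54 to 108.2 CPM and KIF4A at 86.08 to 97.82 CPM. PDZD11 lies opposite KIF4A and differed by 0.09 in the combination (adjusted p 0.776 by edgeR), and the near-identical copy KIF4B had 35 counts in all 20 libraries together.

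KIF14 (ENSG00000118193, chr1:200551497-200620734, minus strand) works at the midbody, where it binds PRC1 and citron kinase. It held 157.8, 141.4, 176.3 and 139.8 CPM in DMSO and 208.9, 181.9, 219.3 and 172.8 CPM in the combination. Its lowest combination library lay just under its highest DMSO library, so these groups overlapped. The rise of 0.35 ± 0.094 was called (adjusted p 0.0176 by edgeR), but the call was lost without DMSO replicate 2 or 4 or combination replicate 1 or 3, with adjusted p-values up to 0.0943. The other 5 members called in the combination and the 4 called at the high dose were called with any 1 of the 8 compared libraries left out.

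Among all tested genes, libraries of the compared groups did not overlap for 10.9% in the combination against DMSO (6 of 10 kinesins) and for 23.3% at the high dose against DMSO (5 of 10 kinesins). For the low dose the figures were 4.62% of genes and 0 kinesins, and for prexasertib 2.94% of genes and 0 kinesins. The high-dose share of kinesins called, 4 of 10, stands against a background of 25.2%. Low-dose differences ran from -0.13 (KIF18A) to 0.01 (KIF20A), 9 of them below 0, and no member had an unadjusted p under 0.05. Prexasertib differences ran from -0.08 (KIF15) to 0.23 (CENPE), 8 of them above 0, and 1 member, CENPE, had an unadjusted p under 0.05. DESeq2 and limma-voom also called 0 of 10 in both. At the low dose they called 0.386% and 0.204% of tested genes in that order, and with prexasertib 0.0437% and 0%.

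**Figure D3:**
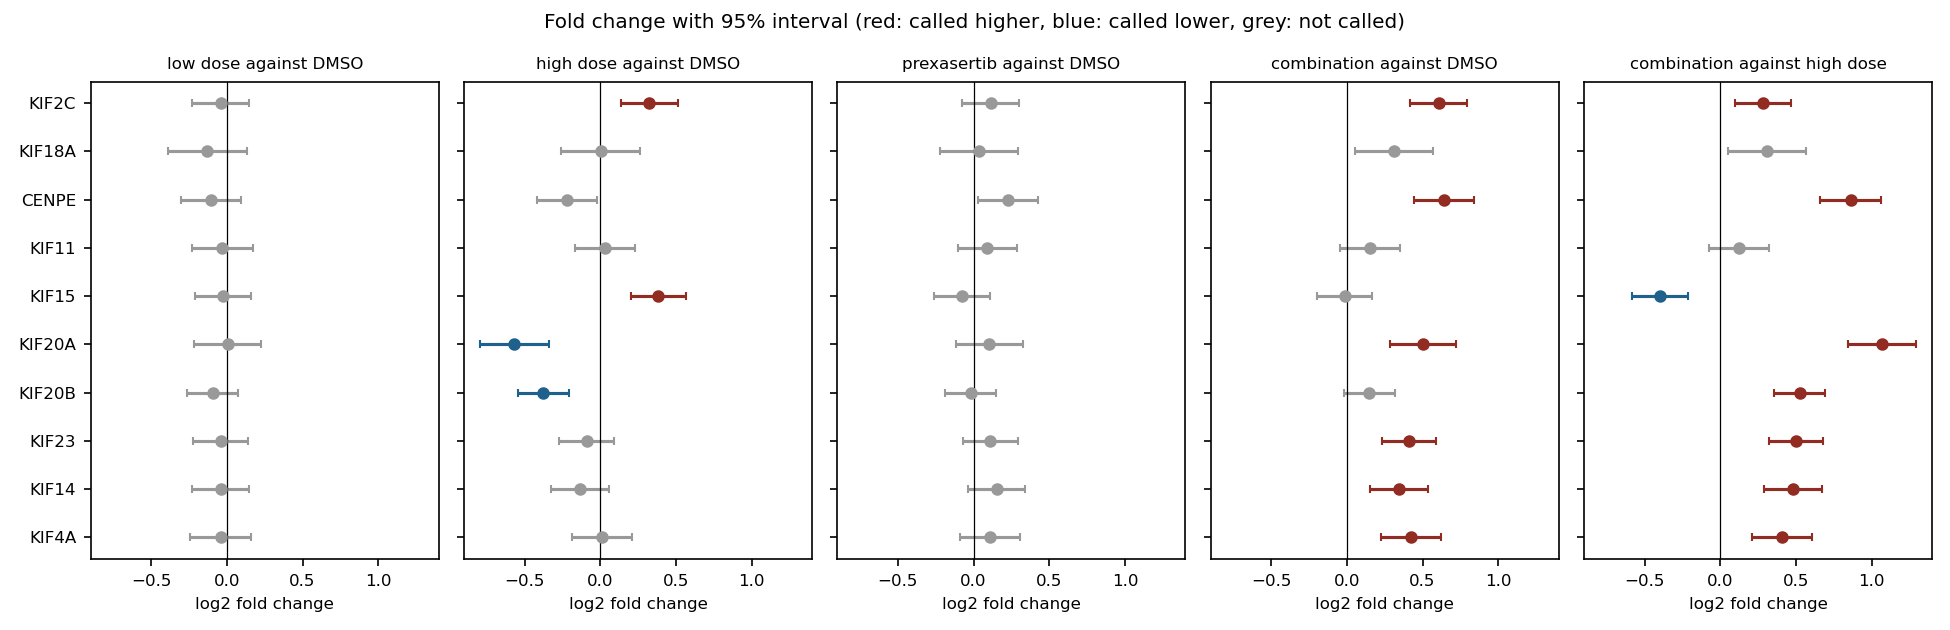
Log2 fold change (x axis) of the 10 kinesins (y axis) in the 4 treated groups against DMSO and in the combination against the high dose. Bars are 95% intervals derived from the edgeR F statistic. Colour marks genes called higher (red), called lower (blue) or not called (grey). KIF20A runs from -0.57 at the high dose to 0.5 in the combination, while KIF15 is called higher at the high dose and lies at -0.01 in the combination.

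The doses of Dyngo-4a were next set against each other. The same 4 kinesins as in the comparison with DMSO were called between high and low dose, where 20.2% of tested genes were called, 10.1% higher and 10.1% lower. KIF20A was lower at the high dose by a log2 fold change of -0.57 ± 0.11 (adjusted p 0.000256) and KIF20B by -0.28 ± 0.083 (adjusted p 0.0137), both by edgeR. KIF2C was higher by 0.37 ± 0.093 (adjusted p 0.00422) and KIF15 by 0.41 ± 0.09 (adjusted p 0.00104). The KIF20B call was lost without low-dose replicate 2 or high-dose replicate 1 (adjusted p up to 0.0603). Libraries did not overlap for 4 of 10 kinesins and 21% of tested genes.

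The combination was then compared with each agent alone. Against prexasertib, 4 kinesins were higher where 3.44% of tested genes were called and 2.4% were called higher: KIF2C by 0.49 ± 0.092 (adjusted p 0.000593), CENPE by 0.42 ± 0.098 (adjusted p 0.00886), KIF20A by 0.4 ± 0.11 (adjusted p 0.0268) and KIF23 by 0.3 ± 0.088 (adjusted p 0.0486), all by edgeR on the log2 scale. KIF2C was the only one of these called whichever 1 library was left out. CENPE lost its call without prexasertib replicate 4 or combination replicate 1 (adjusted p up to 0.0629). KIF20A lost it without prexasertib replicate 1, 2 or 3 or combination replicate 1 or 4 (up to 0.112), and KIF23 lost it without any 1 of the 8 libraries (up to 0.164). The fits with 1 library left out did not include the replicate number. With the replicate number as a block, where 10% of tested genes were called, KIF4A was also called (adjusted p 0.00513 against 0.064 without it, by edgeR). Libraries did not overlap for 5 of 10 kinesins and 9.86% of genes.

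Against the low dose of Dyngo-4a, 7 kinesins were higher, where 3.85% of tested genes were called and 2.7% were called higher. The log2 differences were 0.75 ± 0.099 for CENPE (adjusted p 1.76e-06), 0.65 ± 0.093 for KIF2C (7.38e-06), 0.5 ± 0.11 for KIF20A (0.00309), 0.46 ± 0.098 for KIF4A (0.00226) and 0.45 ± 0.089 for KIF23 (0.000907), with adjusted p-values by edgeR. KIF18A (0.44 ± 0.13, adjusted p 0.04) and KIF14 (0.39 ± 0.094, adjusted p 0.00903) were less firm. KIF18A lost its call without low-dose replicate 2, 3 or 4 or combination replicate 1 or 3 (up to 0.131), and KIF14 without combination replicate 3 (0.0565). With the replicate block, where 8.37% of tested genes were called, KIF20B was also called (adjusted p 0.00846 against 0.105 by edgeR). Libraries did not overlap for 8 of 10 kinesins and 9.09% of genes.

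The interaction asks whether the combination differs from the sum of both agents alone on the log2 scale. It takes the low dose as the Dyngo-4a dose in the combination, which the sources used here do not state. By edgeR 0 of 10 kinesins were called, where 0.284% of tested genes were called. Limma-voom called 0, where it called 0.226% of tested genes, and DESeq2 called 2, where it called 0.524%. By edgeR 7 of 10 had an unadjusted p under 0.05. The share of all tested genes under that unadjusted threshold was not counted, so this number has no background beside it. All 10 estimates were above 0, from 0.09 for KIF15 to 0.54 for KIF2C (adjusted p 0.0633 by edgeR, 0.00888 by DESeq2). CENPE had 0.52 ± 0.14 (adjusted p 0.123 by edgeR, 0.0421 by DESeq2). Both were called by edgeR without combination replicate 4, where 0.409% of tested genes were called.

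Since KIF20A was called lower at the high dose and higher in the combination, these groups were also compared directly, a comparison added after the data were seen. The KIF20A difference was implied by that choice, so its p-value here is no separate test. It had 8 of 10 kinesins called where 20.5% of tested genes were called, 10.4% higher and 10.1% lower. KIF20A was higher in the combination by 1.07 ± 0.11, a fold of 2.1 (adjusted p 5.89e-09), CENPE by 0.86 ± 0.099 (4.56e-08) and KIF20B by 0.52 ± 0.083 (1.48e-05), by edgeR. KIF23 (0.5), KIF14 (0.48), KIF4A (0.41) and KIF2C (0.28) were higher too, with adjusted p-values of 7.32e-05, 0.000256, 0.00225 and 0.0234 in that order. The KIF2C call was lost without high-dose replicate 2 or combination replicate 1 or 3 (up to 0.0969). KIF15 was lower, by a log2 fold change of -0.4 ± 0.09 (adjusted p 0.00143 by edgeR). With the replicate block, where 29.1% of tested genes were called, KIF18A was also called (adjusted p 0.0332 against 0.0793 by edgeR). Libraries did not overlap for 8 of 10 kinesins and 20.7% of genes.

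**Figure D4:**
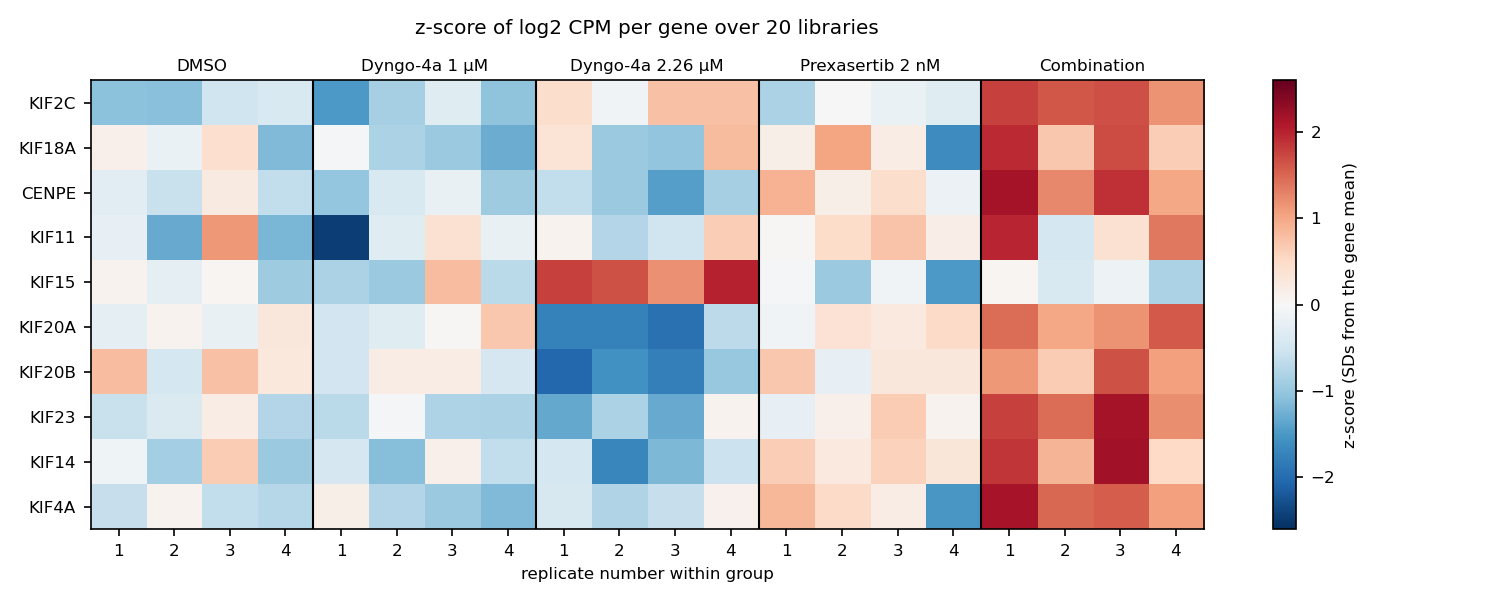
Log2 CPM of each kinesin in each library, scaled per gene to mean 0 and SD 1 (colour), with the 20 libraries in group order on the x axis and genes on the y axis. The combination libraries are high for most members, and KIF15 is high in the 4 high-dose libraries instead.

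The members varied together only in part. Over the 20 libraries, the 45 pairs of kinesins had a median Pearson's r of 0.6 between log2 CPM values, 39 of them above 0. These libraries share treatments and the r values are a description. The highest was 0.92 for KIF14 and CENPE and the lowest -0.67 for KIF20A and KIF15. With group means removed the median was 0.36, 37 pairs were above 0, and the highest was 0.78 for KIF18A and KIF4A. KIF15 and CENPE, which moved apart between groups, had an r of 0.75 within groups. Removing group means leaves the split of replicates in these values, and its part in them was not tested.

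The split of replicates also showed in the members. CENPE averaged 798 CPM in combination replicates 1 and 3 and 646 in replicates 2 and 4. Within replicates 1 and 3 alone, with 2 libraries per group, 6 kinesins were called in the combination against DMSO (6.59% of tested genes) and 5 at the high dose (16.1% of tested genes). Within replicates 2 and 4 alone, 2 were called in the combination, KIF2C and CENPE, where the share over all tested genes was 1.6%. At the high dose 2 were called, KIF20A and KIF15, where that share was 16.1%. The 4 kinesins that lost their call in the combination kept its direction in replicates 2 and 4, with log2 differences of 0.42 for KIF20A, 0.38 for KIF23, 0.33 for KIF14 and 0.33 for KIF4A.

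Other genes of the pathway were read from lists. Of 5 further mitotic kinesins 4 were tested, and KIF2B was at 0 in every library. KIFC1, a minus-end motor that bundles spindle poles, rose in the combination from 61.55 ± 7.13 to 84.72 ± 7.47 CPM (SD, n = 4; log2 0.46, adjusted p 0.0133 by edgeR), the 1 of 4 called. KIF2A differed by -0.3 (adjusted p 0.0504 by edgeR), and the median of the 4 was 0.1. Of 24 tested transport and other kinesins, KIF5A alone was called in the combination (log2 0.46, adjusted p 0.0482 by edgeR) and the median was -0.02. For both lists the share over all tested genes in the combination was 6.3% called, with 3.47% called higher. The 10 mitotic kinesins had a median of 0.38 in the combination and -0.04 at the high dose, and all tested genes had medians of 0.002 and 0.0039 in the same order.

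Of 15 partners of the mitotic kinesins, 6 rose in the combination and none fell, with a median of 0.3, where 3.47% of all tested genes were called higher. PRC1, the bundler of midzone microtubules that KIF4A, KIF20A and KIF14 bind, went from 83.83 ± 7.45 to 116.9 ± 10.44 CPM (SD, n = 4; adjusted p 0.00117 by edgeR). ECT2, which activates RhoA for the cleavage furrow, rose by 0.42 (adjusted p 0.00305 by edgeR). NUSAP1 (0.51), HMMR (0.46), TPX2 (0.31) and AURKA (0.3), which act on spindle microtubules, rose as well. RACGAP1, the partner of KIF23 in centralspindlin, differed by 0.46 and was not called (adjusted p 0.0568 by edgeR). At the high dose 2 of 15 partners were called, both lower, where 25.2% of all tested genes were called and 12.7% were lower: HMMR by a log2 fold change of -1.12 ± 0.11 (adjusted p 1.23e-09 by edgeR) and ANLN, a scaffold of the furrow, by -0.33 (adjusted p 0.0254 by edgeR). Low dose and prexasertib gave 0 called partners, where 0.262% and 0% of all tested genes were called.

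In a list of 12 G2 and M phase genes, 7 rose and none fell in the combination (median 0.35), where 3.47% of all tested genes were called higher. At the high dose 5 fell and none rose (median -0.27), where 12.7% of all tested genes were called lower. TOP2A, the topoisomerase that untangles chromosomes, rose by 0.84 ± 0.084 in the combination (adjusted p 1.68e-09 by edgeR). UBE2C, an enzyme of the anaphase-promoting complex pathway, rose by 0.77 (adjusted p 0.000331 by edgeR). In 12 S phase genes 11 were lower and none higher in both groups. Their medians were -0.52 in the combination (6.3% of all tested genes called in either direction) and -0.51 at the high dose (25.2%). Both comparisons use the same DMSO libraries. CDKN1A, the gene of the CDK inhibitor p21, averaged 53.99 ± 12.4 CPM (SD, n = 4) in DMSO and 425.1 ± 29.34 in the combination. Its mean was 122.9 ± 37.25 CPM under the low dose, 170.6 ± 26.26 under the high dose and 91.72 ± 10.77 under prexasertib. The log2 fold change in the combination was 2.97 (adjusted p 1.5e-09 by edgeR) and at the high dose 1.65 (adjusted p 2.3e-06 by edgeR). CDKN1A was also called higher at the low dose (log2 fold change 1.18) and was not called with prexasertib alone (0.76). A link between CDKN1A and the kinesin levels was not tested.

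**Figure D5:**
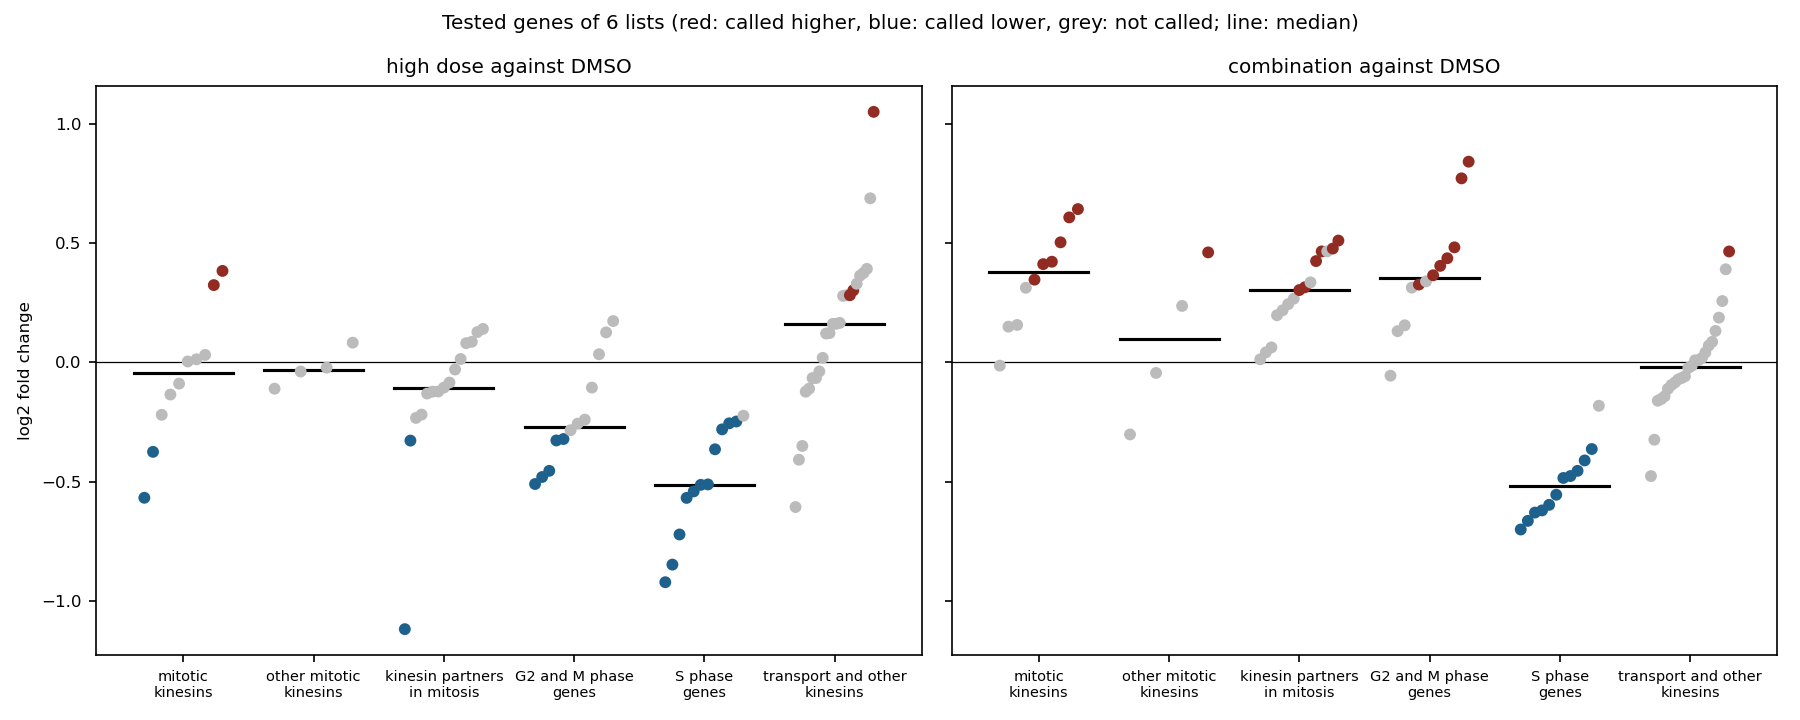
Log2 fold change against DMSO (y axis) of every tested gene in 6 lists (x axis) at the high dose (left) and in the combination (right), with points for genes (red called higher, blue called lower, grey not called) and lines for list medians. In the combination the mitotic kinesins (median 0.38) and the G2 and M phase genes (median 0.35) lie above 0 and the S phase genes (median -0.52) below.

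The genes whose log2 CPM followed the mean of the 10 scaled kinesins most closely over the 20 libraries were sought among 9802 genes outside the set whose mean log2 CPM reached 3. Pearson's r was 0.96 for GTSE1, 0.91 for DLGAP5, 0.9 for PRR11, 0.89 for TOP2A, 0.87 for CEP70, 0.87 for H2BC8, 0.87 for TEX9 and 0.86 for ASPM, as a description over libraries that share treatments. With group means removed, which leaves the split of replicates in the values, r was 0.81 for GTSE1, 0.75 for TEX9, 0.71 for ASPM and 0.31 for H2BC8. The mean of the 10 scaled kinesins itself ran from 0.82 to 1.63 in the combination libraries and from -0.78 to 0.31 in the 16 others, so genes chosen for following it are higher in the combination by that choice. Their log2 differences from DMSO there ran from 0.39 for ASPM to 2.35 for H2BC8.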

How the data were processed

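The deposited values are raw counts per gene for 20 libraries of a 3′ mRNA assay (QuantSeq, with molecular barcodes). Per the submitters' processing notes the genome build was GRCh38 and the tools were STAR 2.7.2b, FastQC 0.11.7, limma 3.50.3 and edgeR 3.36.0. For the annotation, counting, strand setting and collapsing of barcodes no source used here gives details. Gene positions came from GENCODE 29, which held 58515 of 58787 identifiers.

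Groups came from the labels. The edgeR filter filterByExpr required a count of 10 and a total of 15; kept genes held 99.6% to 99.8% of the counts, and scaling was by TMM (factors 0.968 to 1.03). A robust quasi-likelihood fit over all groups used edgeR 4.0.16 in R 4.3.3, with 15 residual degrees of freedom, a common BCV (biological coefficient of variation) of 12.5% and two-sided p-values. A prior count of 2 was used for log2 CPM. Replicates differed by more than sampling noise (chi-square per degree of freedom 3.01 to 8.46). The steps were run on simulated counts that lacked the split of replicates, with changes planted in the combination alone. The pass condition covered false calls and the recovery of changes larger than any kinesin change here. It therefore does not show how well changes of the kinesins' size are found.

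The members, lists and rules were chosen with earlier results of these data known. The rule for named genes took all 10 kinesins, CDKN1A, up to 4 list members with the smallest p in the comparison with most called members, members called beside a described kinesin, and the 8 genes most like the kinesin mean. RACGAP1, KIF2A, KIF2B, the markers DBH, PHOX2A, COL1A1 and TWIST1 and the genes that overlap members or copy them were named with their values known.

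The alternative settings were scaling by library sizes or by relative log expression size factors, no low-count filter, 1 CPM in 4 libraries, DESeq2 1.42.0, limma-voom (limma 3.58.1), the compared groups alone, the replicate block and leaving out each library. Fits within replicates 1 and 3 or 2 and 4, and the combination against the high dose, were added after seeing the data. The labels do not say that replicate numbers pair libraries; they were taken to do so if deviations from the group means correlated above 0.1 in each same-numbered pair. Against DMSO this was met by prexasertib (0.157 to 0.212) and the low dose (0.144 to 0.237), and otherwise by the high against the low dose (0.11 to 0.298) and the combination against prexasertib (0.115 to 0.23), the low dose (0.144 to 0.294) and the high dose (0.172 to 0.319). The main fit and the fits with 1 library left out used no replicate block, also in these paired comparisons.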

Additional observations from a re-analysis of the deposited data

Results flagged for a closer look

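In 50 sets of 4 libraries (10 kinesins in 5 groups), 4 held a library whose gap to the nearest other passed Dixon's 95% critical value, and chance flags about 1 in 20. KIF20A in high-dose replicate 4 was at 55.37 CPM, with the others at 39.72 to 41.78. KIF23 in low-dose replicate 2 was at 105.9 CPM, with the others at 95.06 to 96.9. KIF4A in DMSO replicate 2 was at 97.52 CPM, with the others at 86.45 to 88.3. KIF15 in low-dose replicate 3 was at 250.5 CPM, with the others at 196 to 203.4.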

How the results depend on the processing

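Of 1700 values of single kinesins under the alternatives, 1571 kept direction and side of the threshold, 65 lost a call, 16 gained one and 48 changed sign, none of the last called either way. Within replicates 2 and 4 alone 2 kinesins were called at the high dose (16.1% of all tested genes), 2 in the combination against DMSO (1.6%), 2 for the high against the low dose (11.5%), 0 for the combination against prexasertib (0.753%), 2 against the low dose (1.03%) and 5 against the high dose (11.2%). For the interaction DESeq2 called 2 (0.524% of all genes) and replicates 1 and 3 alone called 1, CENPE (0.217%). Leaving out 1 library gave 1 to 3 kinesins for the combination against prexasertib (2.21% to 3.4% of all tested genes). For the interaction it gave 0 to 2 (0.207% to 0.409%).

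With the replicate block 2 kinesins were called in the interaction, KIF2C (adjusted p 0.00383) and CENPE (adjusted p 0.000612, both by edgeR), where 1.22% of all tested genes were called. Without a shown pairing (lowest same-number correlation 0.0271 at the high dose, 0.0274 in the combination and in the interaction; best with their own number 2 of 4, 3 of 4 and 22 of 24), the block gave 5 kinesins at the high dose, with CENPE added (adjusted p 0.0126 by edgeR), where 34.4% of genes were called, and 6 in the combination, where 14.4% were called. It changed no call of the paired comparisons beyond those given beside the results. Some calls near the threshold were lost under other settings, by edgeR unless named: KIF14 in the combination with the compared groups alone (adjusted p 0.0569), KIF20B between doses with no filter (0.0662), KIF18A against the low dose with library sizes (0.0725), no filter (0.0548) and limma-voom (0.0514), KIF2C against the high dose with no filter (0.129) and the compared groups alone (0.0501), and KIF23 against prexasertib with library sizes (0.0527), relative log size factors (0.0504), no filter (0.198), 1 CPM (0.0603) and the compared groups alone (0.0678). The cause was not tested.

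Sign changes, all of uncalled log2 differences, were as follows. For the low dose KIF20A gave -0.0052 with no filter, -0.0025 with voom and -0.0086 in replicates 1 and 3, and KIF4A 0.039 in replicates 1 and 3. In replicates 2 and 4 KIF11 gave 0.1282, KIF23 0.0289 and KIF14 0.0129. For the high dose KIF11 gave -0.0783 and KIF18A -0.1213 in replicates 1 and 3, and KIF23 0.0318 and KIF4A -0.0092 in replicates 2 and 4. For prexasertib KIF11 gave -0.0059 and KIF18A -0.0189 in replicates 1 and 3, and KIF20B 0.024 and KIF4A -0.0258 in replicates 2 and 4. Between doses KIF4A gave -0.0093 in replicates 1 and 3 and KIF23 0.0028 in replicates 2 and 4. For the combination against the low dose KIF15 gave -0.0222 with library sizes and -0.0057 in replicates 1 and 3, and for the interaction KIF11 gave -0.1109 in replicates 2 and 4. With 1 library left out the ranges that crossed 0 were, for the low dose, KIF11 -0.0757 to 0.0402, KIF14 -0.0915 to 0.0222, KIF15 -0.1175 to 0.0027, KIF20A -0.1066 to 0.0611 and KIF2C -0.0992 to 0.0037. For the high dose they were KIF11 -0.0066 to 0.1036, KIF18A -0.069 to 0.063 and KIF4A -0.0198 to 0.0504. For prexasertib they were KIF18A -0.048 to 0.1455 and KIF20B -0.0635 to 0.0135. Between doses they were KIF11 -0.01 to 0.1059 and KIF23 -0.1029 to 0.0039. For the combination KIF15 gave -0.0561 to 0.0141 against DMSO and -0.0162 to 0.1032 against the low dose.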
